A study of Mus musculus with 4 samples.

Results

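Expanded private clones are families of B cells that carry 1 heavy-chain rearrangement, reach at least 5 cell barcodes in 1 library and are absent from the other, leaving out the heavy-chain genes IGHV11-2 and IGHV12-3. A clone was defined by the same heavy-chain V gene, J gene and CDR3 nucleotide sequence, taken for each barcode from the heavy-chain contig with most unique molecular identifiers (UMIs). The rule found 61 clones with 464 barcodes, of which 439 had an expression profile with 200 or more genes and a mitochondrial share below 10%, out of 32345 such profiles in the series. The knockout (KO) library held 48 of the clones (339 barcodes, 317 with a profile) and the wild-type (WT) library 13 (125 barcodes, 122 with a profile). Clone size and privacy chose the members, so their number and size are descriptions. The cells were CD45-positive cells of the peritoneal lavage of KO and of WT mice, and the mice of both genotypes had been given a high-fat diet for 3 months starting at 4 weeks of age. Each genotype has 1 droplet expression library and 1 B-cell receptor (BCR) library, and how many mice went into each is not stated in the sources used here.

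B-1 cells are a self-renewing B-cell lineage of the body cavities that makes natural antibody, and their receptors are often germline-like and shared between animals. The best-known large B-1 families use the heavy-chain genes IGHV11-2 and IGHV12-3 and bind phosphatidylcholine, and they are the families left out here. B-2 cells, the conventional recirculating B cells, carry diverse receptors and rarely form large clones without an immune response. Zbtb32, a transcriptional repressor that restrains recall responses, Bhlhe41, a transcription factor needed for B-1a cells, and Mzb1, an endoplasmic reticulum chaperone that aids antibody assembly, were the markers given for the clones.

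The KO libraries stood apart in a way that touches clone size. Among private clones outside the 2 excluded genes, the KO library had 2630 clones of exactly 2 barcodes beside 4466 of 1 barcode, whereas the WT library had 181 beside 3992. In KO the 2 barcodes of such a clone shared the light chain in 93.6% of clones, and their total UMIs were correlated across 2569 pairs with Spearman's rho 0.848, their mitochondrial share with 0.785 and their T-cell marker UMIs with 0.749. Among the 44 KO pairs in which either barcode had 10 or more UMIs of the macrophage gene Lyz2, both had them in 35. In WT the same correlations over 166 pairs were 0.702, 0.354 and 0.372. With the first barcode of a clone set beside the second of another, the correlations were -0.0005, 0.006 and -0.0009 in KO. In WT they were 0.109, 0.011 and 0.053. Of 79 such KO pairs with 10 or more Lyz2 UMIs in either barcode, 0 had them in both. These values are descriptions, and whether 2 KO barcodes can stand for 1 cell was not tested. The number of cells behind a KO clone, and the difference in clone number between genotypes, cannot be told apart from the likeness of KO barcodes within clones. KO profiles were also shallower, with a median of 3688 UMIs in the KO members and 8959 in the WT members. The 2 expression libraries shared 293 barcodes and the BCR libraries 107 with a heavy chain, none of them with the same clone.

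The largest clone of each library was almost the same receptor, and the CDR3 sequences below show how close such private clones came to each other. Capitals mark the bases that lie between the start shared by most clones with that V gene and the end shared by most clones with that J gene, which is the part built during rearrangement.
KO clone 1 heavy CDR3, IGHV1-55 IGHJ1: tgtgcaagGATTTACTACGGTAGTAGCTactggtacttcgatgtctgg
WT clone 1 heavy CDR3, IGHV1-55 IGHJ1: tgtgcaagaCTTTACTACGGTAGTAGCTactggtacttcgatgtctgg
KO clone 1 and WT clone 1 light CDR3, IGKV12-89 IGKJ1: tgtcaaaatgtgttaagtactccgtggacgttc
KO clone 2 heavy CDR3, IGHV1-55 IGHJ2: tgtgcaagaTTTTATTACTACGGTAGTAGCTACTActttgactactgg
KO clone 38 heavy CDR3, IGHV1-52 IGHJ1: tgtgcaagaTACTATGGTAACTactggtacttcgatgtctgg
WT clone 6 heavy CDR3, IGHV1-52 IGHJ1: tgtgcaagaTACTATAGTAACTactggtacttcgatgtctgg
KO clone 3 heavy CDR3, IGHV14-2 IGHJ1: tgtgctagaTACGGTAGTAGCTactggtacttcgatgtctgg
WT clone 2 heavy CDR3, IGHV6-6 IGHJ3: tgCACCTACTGGgcttactgg

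KO clone 1 (32 barcodes) and WT clone 1 (29 barcodes) shared both V genes, both J genes and the whole light-chain CDR3. Their heavy-chain CDR3s of 48 bases differed by G9A and A10C, with positions counted from 1 at the 5′ end of the CDR3 and the KO base first. KO clone 2 (12 barcodes) paired the same V genes, IGHV1-55 and IGKV12-89, with another heavy-chain J gene. Barcodes with this pairing made up 0.591% of KO heavy-chain barcodes (exact 95% interval 0.468% to 0.737%, 78 barcodes in 21 clones) and 0.761% of WT ones (0.558% to 1.01%, 46 barcodes in 11 clones), counting clones of every size. The intervals overlap, so no difference in this family was detectable. All intervals in this text cover counting error only, not the spread between mice. Barcodes of a clone share 1 rearrangement, so intervals over member barcodes are too narrow and no difference is read from them.

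Other members also had close relatives. KO clone 38 (5 barcodes) and WT clone 6 (7 barcodes) differed by G16A, with the KO base first, and both paired IGHV1-52 with the light-chain V gene IGKV1-117 but with different light-chain J genes. KO clone 21 and WT clone 7 (6 barcodes each) both joined IGHV1-11 and IGHJ2 to IGKV3-7 and IGKJ2 with the same light-chain CDR3, while their heavy-chain CDR3s of 21 bases were unlike. KO clone 14 and WT clones 9 and 10 shared IGHV5-16 with IGLV2. In all, 6 of 48 KO clones and 4 of 13 WT clones had a clone within 3 substitutions in the other library that used the same heavy-chain genes, CDR3 length and light-chain V gene. Clones of every size in the other library were searched. The share among single-barcode clones was not measured, so no excess in members is read from these counts. Within KO, clones 33 and 34 (IGHV9-3, 6 barcodes each) differed by A25T, clone 33's base first, and had the same leading light chain.

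Beyond the largest ones, the clones were small. In KO, the 6 largest had 32, 12, 11, 10, 9 and 9 barcodes, and clone 1 held 9.44% of KO member barcodes. In WT, they had 29, 24, 10, 8, 8 and 7, and clone 1 held 23.2% of WT member barcodes. The median clone had 6 barcodes in both libraries. Members were 2.57% of KO heavy-chain barcodes (2.31% to 2.85%, 339 of 13190) and 2.07% of WT ones (1.73% to 2.46%, 125 of 6041). With 10 barcodes as the minimum there were 4 KO clones and 3 WT clones, and with KO thinned to the number of WT barcodes 7.73 KO clones were expected against the 13 in WT. Just outside the limit of 5 barcodes stood 51 KO and 19 WT clones of 4 barcodes, and just inside it 14 KO and 3 WT clones of 5.

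**Figure D1:**
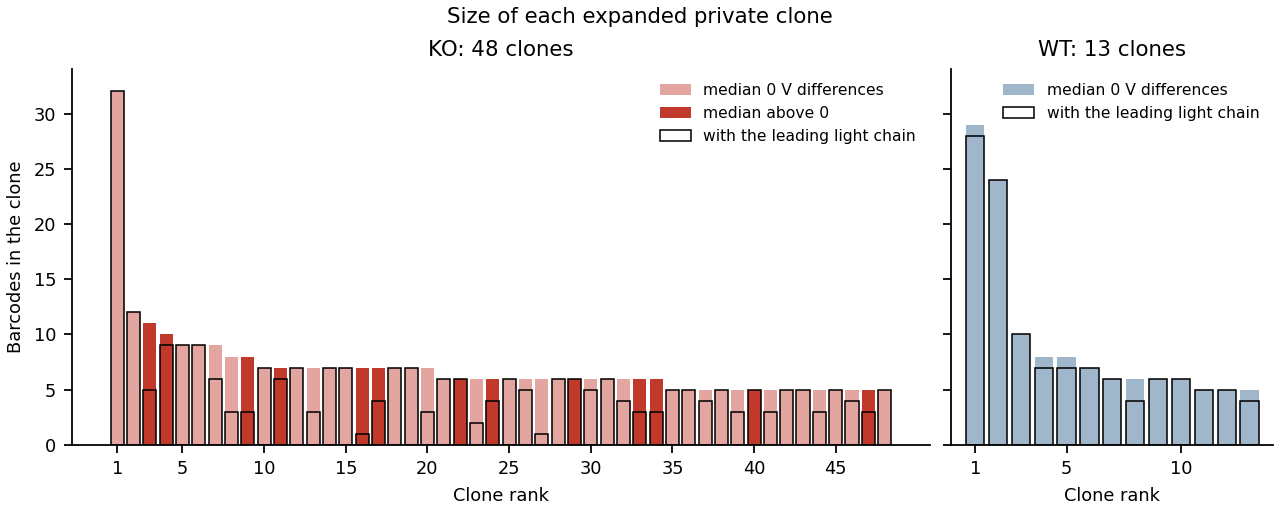
Barcodes (y axis) in each expanded private clone by rank (x axis), KO left and WT right. Outlined bars count the barcodes with the clone's leading light chain and darker fill marks clones whose median number of V-segment differences from germline is above 0. KO has 1 clone above 12 barcodes and WT has 2, and the darker fill appears in KO alone.

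The rule did not use light chains, so they describe how alike the barcodes grouped by the heavy chain are. The number of cells behind KO barcodes is not known, as described above. A light chain shared by KO barcodes therefore does not show that separate cells are 1 family. The most frequent light chain of each clone, by V gene, J gene and CDR3, was carried by 82.6% of KO member barcodes with a light chain (78.0% to 86.5%, 270 of 327) and by 95.2% of WT ones (89.8% to 98.2%, 119 of 125). A single light chain was found in 26 of 48 KO clones and 8 of 13 WT clones, and 3 or more in 8 KO clones and 1 WT clone. These counts take any change in the light-chain CDR3 as another light chain. In KO clones 7, 11, 17, 39 and 46 the only other chain had the same V and J genes and differed by 1 substitution. KO clone 3 stood out with 7 light chains among 11 barcodes, 5 of which carried its leading chain IGKV4-58 IGKJ2. KO clone 16 had 5 light chains and a median of 1 heavy-chain UMI per barcode, and 2 of its 7 barcodes had an expression profile. KO clone 23 had 3 light chains. In KO clone 9 (IGHV7-3), all 8 barcodes used IGKV4-72 IGKJ4, in 4 CDR3 versions carried by 3, 2, 2 and 1 barcodes. The other versions differed from the leading one by C18T, by A13G and C18T, and by G14C, counted from the 5′ end of the light-chain CDR3 with the leading base first. With barcodes of exactly 1 heavy and 1 light contig, the KO share of the leading light chain was 88.6%.

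The V segments of most members had no difference from the reference germline gene of the mm10 annotation used here. The sources used here do not name the mouse strain. For differences carried by every barcode of a clone, mutations and allelic differences therefore cannot be told apart. The cause of V sequences that differ within a clone was not tested. All 13 WT clones had a median of 0 differences and 1 V sequence each. In KO, 35 of 48 clones had a median of 0 and 33 had a single V sequence. By barcode, 75.5% of KO members had no difference (70.6% to 80.0%), against 93.9% of KO single-barcode clones (93.1% to 94.6%), and 100% of WT members (97.1% to 100%), against 94.0% of WT single-barcode clones (93.2% to 94.7%). These shares count barcodes that are copies of 48 KO and 13 WT rearrangements, and no difference from the single-barcode clones is read from them. KO clone 3 (IGHV14-2) carried a median of 8 differences, up to 11, in 8 distinct V sequences. KO clones 4, 9, 11, 17, 29, 34 and 47 each held 3 to 5 V sequences with up to 5 to 9 differences. The CDR3 is identical within a clone by the rule, so changes in it could not be seen here. Clones 4, 17, 29 and 47 are among the 8 KO clones that use IGHV6-3.

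IgM dominated. The constant gene was IGHM in 97.9% of KO member barcodes (95.8% to 99.2%, 332 of 339), against 92.9% of KO single-barcode clones (92.2% to 93.7%), and in 100% of WT members (97.1% to 100%), against 94.9% of WT single-barcode clones (94.2% to 95.6%). IgD, which B-2 cells coexpress with IgM, was the assigned constant gene in 0 of 339 KO members, against 5.17% of KO single-barcode clones, and in 0 of 125 WT members, against 3.43% of WT single-barcode clones. Counted as clones, 0 of 48 in KO allows up to 6.25% and 0 of 13 in WT up to 23.1%, so no difference was detectable. High IgM and scarce IgD were not particular to the members. Clones found in both libraries, outside the 2 excluded genes, had IGHM in 98.5% of KO and 100% of WT barcodes. Their IgD counts were 0 of 402 and 0 of 256. IGHV11-2 or IGHV12-3 clones had IGHM in 99.9% of barcodes in each library, and IgD in 0 of 1379 in KO and 1 of 1113 in WT. Class-switched contigs were found in KO clones 24, 40 and 47, with 2 IGHG3 barcodes each. They made up 1.77% of KO members, against 1.55% of KO single-barcode clones, and 0 of 125 WT members, against 1.55% of WT single-barcode clones. Lambda light chains were used by 22.3% of KO members (17.9% to 27.2%), against 11.6% of KO single-barcode clones (10.7% to 12.6%), and by 10.4% of WT members (5.65% to 17.1%), against 12.7% of WT single-barcode clones (11.6% to 13.7%). The heavy-chain CDR3 had a median of 37.5 bases over KO member clones and 39 over KO single-barcode clones, and 39 over both in WT.

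IGHV1-55 was among the most used V genes in both libraries, and the others differed. IGHV1-55 held 13.0% of KO member barcodes in 2 clones, against 3.18% of KO single-barcode clones, and 23.2% of WT members in 1 clone, against 3.01% of WT single-barcode clones. IGHV6-3 held 15.3% of KO member barcodes (11.7% to 19.6%, 8 clones), against 3.47% of KO single-barcode clones (2.95% to 4.05%), and 0 of 125 WT members, against 3.46% of WT single-barcode clones (2.91% to 4.07%). IGHV7-3 held 10.9% of KO members in 5 clones, against 2.55% of KO single-barcode clones, and 0 of 125 WT members, against 2.43% of WT single-barcode clones. IGHV6-6 held 0 of 339 KO members, against 2.13% of KO single-barcode clones, and 19.2% of WT members, against 2.45% of WT single-barcode clones. All of the WT barcodes belonged to WT clone 2, whose CDR3 of 21 bases is the shortest shown above. IGHV1-11 held 1.77% of KO members (0.652% to 3.81%), against 0.224% of KO single-barcode clones (0.107% to 0.411%), and 12.8% of WT members (7.497% to 19.95%), against 0.251% of WT single-barcode clones (0.120% to 0.460%). These shares rest on few clones, and barcodes of a clone are not independent.

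In expression, the members were B cells with a B-1 profile. Cd79a, a signalling subunit of the BCR, had 3884 CPM (UMIs of a gene per 1000000 UMIs of the population) in KO members and 4049 CPM in KO single-barcode clones, and 3143 CPM in WT members and 3753 CPM in WT single-barcode clones. Ms4a1, which encodes the B-cell surface protein CD20, had 1062 CPM in KO members and 1000.2 CPM in KO single-barcode clones, and 994 CPM in WT members and 961 CPM in WT single-barcode clones. Neither passed the test described next. UMIs were summed over the members of a library and over its single-barcode clones outside IGHV11-2 and IGHV12-3 (4304 KO and 3917 WT profiles), and the 4 sums were compared with edgeR's quasi-likelihood test with the library as a block. With Benjamini-Hochberg adjustment over 11243 genes, 208 genes were higher (1.85%) and 156 lower (1.39%) in members at an adjusted p under 0.05. Of the genes higher, all 208 moved the same way in both libraries, and of the 156 lower, 155 did. The comparison has 1 residual degree of freedom and its replicates are 2 libraries of different genotype. Its p-values rest on how far the difference between members and single-barcode clones varied between the 2 libraries, with information borrowed across genes. They do not measure the spread between mice. In these sums, fewer cells of a type and less RNA per cell cannot be told apart.

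The 3 given markers were all higher in members. Zbtb32 stood at 169 CPM in KO members and 92.0 CPM in KO single-barcode clones, and at 200 CPM in WT members and 118 CPM in WT single-barcode clones, a log2 fold change of 0.88 ± 0.09 (SE; edgeR quasi-likelihood adjusted p = 0.000329). Bhlhe41 had 57.8 CPM in KO members and 29.9 CPM in KO single-barcode clones, and 75.6 CPM in WT members and 36.5 CPM in WT single-barcode clones (1.06 ± 0.13, adjusted p = 0.000637 by edgeR). Mzb1 had 1012 CPM in KO members and 714 CPM in KO single-barcode clones, and 969 CPM in WT members and 625 CPM in WT single-barcode clones (0.63 ± 0.07, adjusted p = 0.000412 by edgeR). In all 3, the members' counting intervals lay above those of the single-barcode clones in both libraries, as the plot of levels by population shows.

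**Figure D2:**
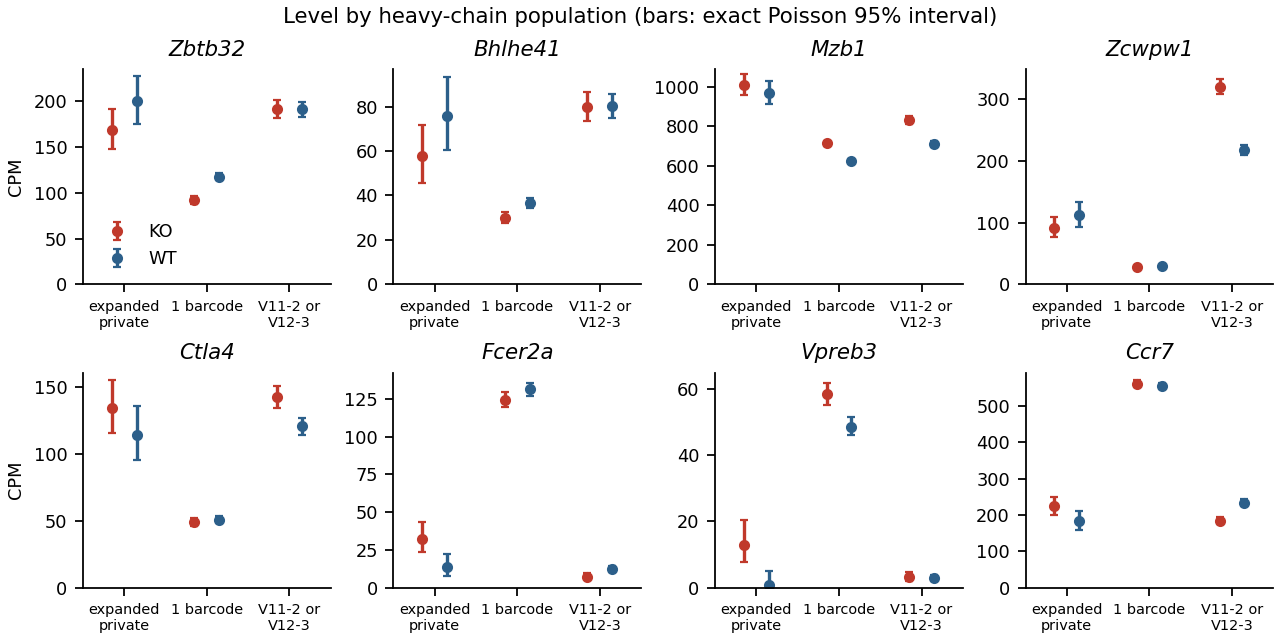
Level in CPM (y axes, linear) of 8 genes in members, in single-barcode clones and in IGHV11-2 or IGHV12-3 clones (x axes), KO in red and WT in blue, with exact Poisson 95% intervals. Zbtb32, Bhlhe41, Mzb1, Zcwpw1 and Ctla4 are higher and Fcer2a, Vpreb3 and Ccr7 lower in members than in single-barcode clones of both libraries.

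Most of the listed B-1 genes were higher in members. Of the 21 listed B-1 genes, 13 were higher and 1, Rasgef1b, was lower, with a list median of 0.76 on the log2 scale against a median of -0.01 over all genes tested. The 13 include the given markers Zbtb32 and Bhlhe41, so the list and the markers are not independent of each other. Zcwpw1, a histone-mark reader, reached 91.7 CPM in KO members and 27.6 CPM in KO single-barcode clones, and 112 CPM in WT members and 29.0 CPM in WT single-barcode clones (1.90 ± 0.12, adjusted p = 1.09e-05 by edgeR). Ctla4, an inhibitory receptor, had 134 CPM in KO members and 49.2 CPM in KO single-barcode clones, and 114 CPM in WT members and 50.7 CPM in WT single-barcode clones (1.38 ± 0.11). Ccdc28b (1.32 ± 0.12), the chromatin-digesting nuclease gene Dnase1l3 (1.32 ± 0.16), the tetraspanin Cd9 (0.89 ± 0.10) and the calcium-binding protein gene S100a6 (0.52 ± 0.07) were higher too. Cd5, the surface marker that splits B-1a from B-1b cells, did not pass the test, with 34.7 CPM in KO members and 25.1 CPM in KO single-barcode clones, and 31.1 CPM in WT members and 25.6 CPM in WT single-barcode clones (0.44 ± 0.17, adjusted p = 0.27 by edgeR).

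B-2 genes moved the other way. Of 19 tested, 14 were lower and 0 higher, with a list median of -0.72. Fcer2a, which encodes the low-affinity IgE receptor CD23 of follicular B cells, had 32.5 CPM in KO members and 125 CPM in KO single-barcode clones, and 13.3 CPM in WT members and 132 CPM in WT single-barcode clones (-2.37 ± 0.20, adjusted p = 9.29e-05 by edgeR). Vpreb3 had 13.0 CPM in KO members and 58.5 CPM in KO single-barcode clones, and 0.890 CPM in WT members, a single UMI, and 48.6 CPM in WT single-barcode clones (-2.79 ± 0.33). The lymph-node homing receptor Ccr7 had 224 CPM in KO members and 561 CPM in KO single-barcode clones, and 184 CPM in WT members and 555 CPM in WT single-barcode clones (-1.39 ± 0.09). The complement receptor Cr2 (-2.53 ± 0.27), the costimulatory ligand Icosl (-2.51 ± 0.31), the chromatin organiser Satb1 (-1.77 ± 0.17) and Bach2, a repressor of plasma-cell differentiation (-1.42 ± 0.13), were lower as well.

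By the ranking of fold changes among genes at 50 CPM or more, the other genes highest in members were Krt8, Ahnak2, Slc7a7, Ms4a6c, Prdm1, Prkar2b, Csf2rb and Tmem154. Slc7a7, a subunit of a cationic amino acid transporter, had 69.3 CPM in KO members and 17.0 CPM in KO single-barcode clones, and 50.7 CPM in WT members and 26.4 CPM in WT single-barcode clones (1.58 ± 0.22, adjusted p = 0.00143 by edgeR). Csf2rb, the shared beta chain of the receptors for IL-3, IL-5 and GM-CSF, had 70.0 CPM in KO members and 33.5 CPM in KO single-barcode clones, and 81.9 CPM in WT members and 39.7 CPM in WT single-barcode clones (1.11 ± 0.12). Krt8, a keratin, had 7.94 CPM in KO members and 2.83 CPM in KO single-barcode clones, and 54.3 CPM in WT members and 9.01 CPM in WT single-barcode clones (2.34 ± 0.31). The other genes lowest in members were Lrrk2 (-2.58 ± 0.31), Gpr171 (-2.01 ± 0.22), Zfp318, which is needed for IgD expression (-1.93 ± 0.20), Ms4a4c (-1.83 ± 0.21), Neurl3 (-1.80 ± 0.33), Pkib (-1.64 ± 0.19) and Chchd10 (-1.31 ± 0.15). Without the library block, Krt8, Ahnak2, Dnase1l3 and Neurl3 lost the call, and Neurl3, Vpreb3 and Lrrk2 lost it with DESeq2.

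Genes of secretion and activation moved in part. Prdm1, the master regulator of antibody-secreting cells, had 52.7 CPM in KO members and 19.7 CPM in KO single-barcode clones, and 32.0 CPM in WT members and 19.9 CPM in WT single-barcode clones (1.17 ± 0.20, adjusted p = 0.00554 by edgeR), but lost the call with at most 5 barcodes per clone. Of the 11 antibody-secreting-cell genes tested, 2 were higher (Prdm1 and Mzb1) and 1 lower (Jchain), with a median of -0.03. Jchain, which joins IgM pentamers, had 5.78 CPM in KO members and 47.2 CPM in KO single-barcode clones, but 7.12 CPM in WT members and 5.28 CPM in WT single-barcode clones, so its direction was not shared. Of the regulatory cytokine genes, 2 of 7 were higher, Il10 (1.91 ± 0.40, adjusted p = 0.021 by edgeR) and Ebi3, a subunit of IL-27 and IL-35 (0.85 ± 0.13). Il10 stayed low, at 8.67 CPM in KO members and 2.21 CPM in KO single-barcode clones, and 12.5 CPM in WT members and 3.66 CPM in WT single-barcode clones. Of 24 targets of MYC and mTORC1, 3 were higher (Odc1, Phgdh and Npm1), with a median of 0.18.

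None of 20 cell-cycle genes passed the test in either direction (median 0.0018), and the 21 listed genes present in the files summed to 1122 CPM in KO members and 1087 CPM in KO single-barcode clones, and to 1188 CPM in WT members and 1155 CPM in WT single-barcode clones. No difference in cell-cycle genes was detectable at this depth. Of 27 BCR signalling genes, 4 were lower (Ptprc, Cr2, Fyn and Rasgrp3) and 0 higher. Of 15 atypical and age-associated B-cell genes, 5 were higher (Fcrl5, Sox5, Apoe, Zbtb32 and Zbtb20), with a median of 0.52. Inhibitory receptor genes were split, with Ctla4, Fcrl5 and Pdcd1lg2 higher and Cd72 lower of 17. The immediate-early genes Dusp2 (-1.27 ± 0.20), Nr4a1 (-0.39 ± 0.09) and Junb (-0.26 ± 0.06) were lower, while Atf3 (0.68 ± 0.08) was higher. Without the library block Atf3, Dusp2, Nr4a1, Ptprc, Odc1 and Phgdh lost the call, as did Dusp2, Ptprc and Phgdh with DESeq2. The 13 lists drawn in the plot of gene lists were chosen from 30.

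**Figure D3:**
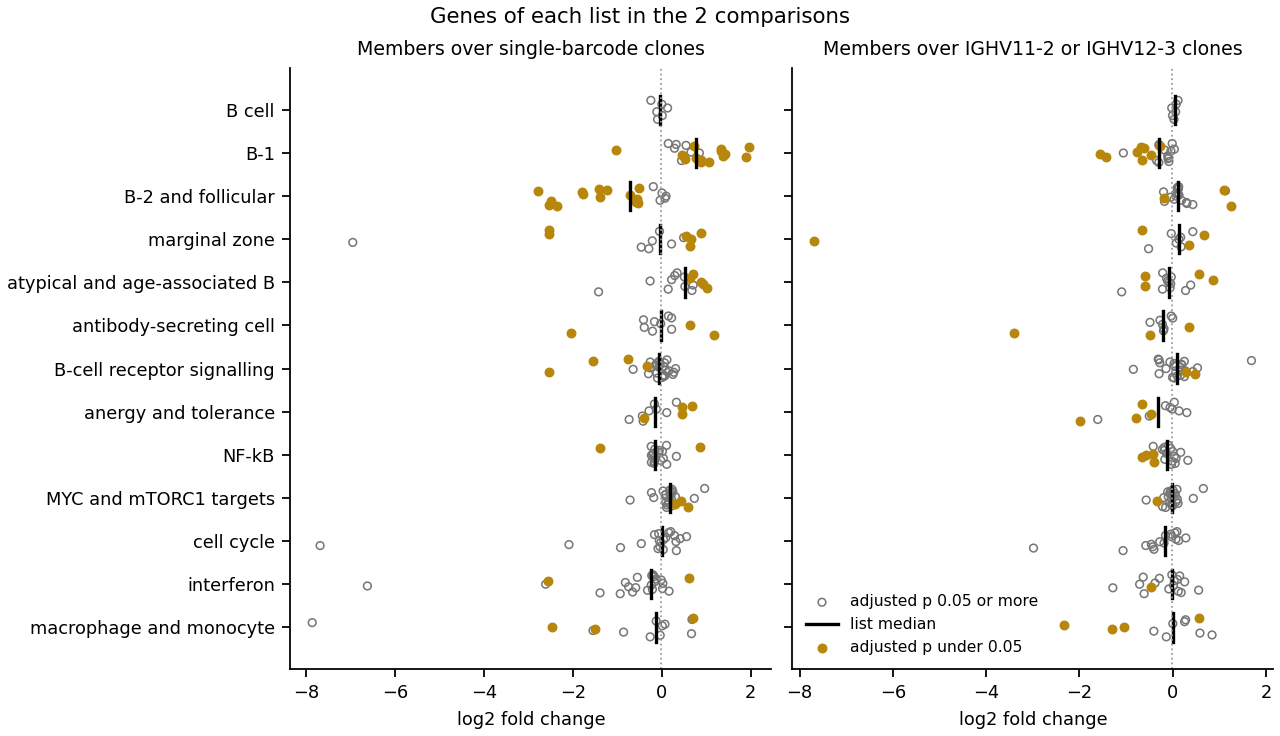
log2 fold change (x axes) of the genes of 13 lists (rows) in members over single-barcode clones (left) and over IGHV11-2 or IGHV12-3 clones (right). Filled points have an edgeR adjusted p under 0.05, black bars are list medians and the dotted line is the median of all genes tested, and the B-1 list lies right of it on the left (13 of 21 higher) and partly left of it on the right (8 of 21 lower).

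Many profiles held some UMIs of genes listed for T cells, NK cells, or macrophages and monocytes. The last list includes Apoe, which was higher in members and had UMIs in 128 of 317 KO and 61 of 122 WT member profiles. The counts and macrophage sums below therefore cannot be read as material of other cell types alone. After leaving out profiles with 3 or more such UMIs or a second heavy chain, 194 of 317 KO members and 62 of 122 WT members remained, against 2837 of 4304 KO single-barcode clones and 2829 of 3917 WT ones. The 12 T-cell markers summed to 316 CPM in KO members and 449 CPM in KO single-barcode clones, and to 340 CPM in WT members and 372 CPM in WT single-barcode clones, with no marker at 0. The 14 macrophage and monocyte markers summed to 1044 CPM in KO members and 763 CPM in KO single-barcode clones, and to 391 CPM in WT members, where 5 were at 0, and 689 CPM in WT single-barcode clones. Of the KO members' Lyz2 UMIs, 93.4% lay in 5 of 317 profiles, and of the WT members' 91.9% lay in 1 of 122. Without the profiles with other-lineage UMIs or a second heavy chain, 289 genes were higher and 208 lower, and the 3 given markers kept their calls. Without profiles holding 5 or more Lyz2 UMIs, 330 were higher and 245 lower, an alternative chosen after seeing the data.

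Most clones with enough UMIs to be scored singly lay above the single-barcode clones on the B-1 list and below them on the B-2 list. Many clones with fewer UMIs did not. Clones were scored by the median log2 ratio of a gene list to the single-barcode clones of the library, with 10 CPM added, and 32 of 48 KO clones and all 13 WT clones had the 20000 UMIs asked for. The B-2 list median lay below the single-barcode clones in 32 of 32 KO clones (from -2.01 to -0.12, median -0.97, where the lowest value is that of a list gene with no UMI) and in 13 of 13 WT clones (from -1.63 to -0.57, median -0.87). The B-1 list median lay above them in 27 of 32 KO clones (from -0.37 to 1.26, median 0.46) and in 12 of 13 WT clones (from -0.08 to 0.85, median 0.36). The cell-cycle list, scored likewise, was also below 0 in most of the 32 KO clones. It ran from -1.46 in KO clone 8 to 2.04 in KO clone 33. Its summed level was 1122 CPM in KO members and 1087 CPM in KO single-barcode clones. The part of low UMI counts in these scores was not tested, so B-2 scores below 0 are not read as a trait of single clones. Single clones varied widely in single genes. Fcer2a had no UMI in 23 of the 32 KO clones and 7 of the 13 WT clones, and Zcwpw1 ranged from 0 to 373 CPM over the KO clones and from 0 to 387 CPM over the WT clones. Zbtb32 was above the single-barcode level in 25 of 32 KO clones and 11 of 13 WT clones. The 16 KO clones left out had 1844 to 19409 UMIs. Of these, 9 had a B-1 score below their B-2 score, with differences over the 16 from -2.12 to 2.23, against 0 of the 32 clones scored. Their B-1 score was below the single-barcode clones in 15 and their B-2 score in 14, and the part of low UMI counts in this was not tested. KO clone 23, with 3 light chains, had 468 CPM of Fcer2a and no Zbtb32 UMI among 14965 UMIs.

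Within KO, clones with V differences sat lower on the B-1 list. The 8 KO clones with a median above 0 differences and enough UMIs had a median B-1 score of -0.0021 (from -0.37 to 0.36), and the 24 with a median of 0 had 0.54 (from -0.26 to 1.26). The ranges overlap, the clones come from 1 library, and no test was made. Most of the 8 clones also had 2 or more light chains. Over KO clones with enough UMIs, the median B-1 score was 0.54 for the 18 with 1 light chain and 0.20 for the 14 with 2 or more. V differences and the number of light chains therefore cannot be told apart here. Zcwpw1 had a median of 0 CPM over the 8 clones (up to 74.9 CPM) and 39.3 CPM over the 24 (up to 373 CPM). Zbtb32 did not follow this order, with a median of 189 CPM over the 8 clones and 152 CPM over the 24. Among the 3 IGHV6-3 clones with enough UMIs the difference between the B-1 and B-2 scores was 0.03, 0.11 and 0.87, against a median of 1.26 over all 32 KO clones.

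**Figure D4:**
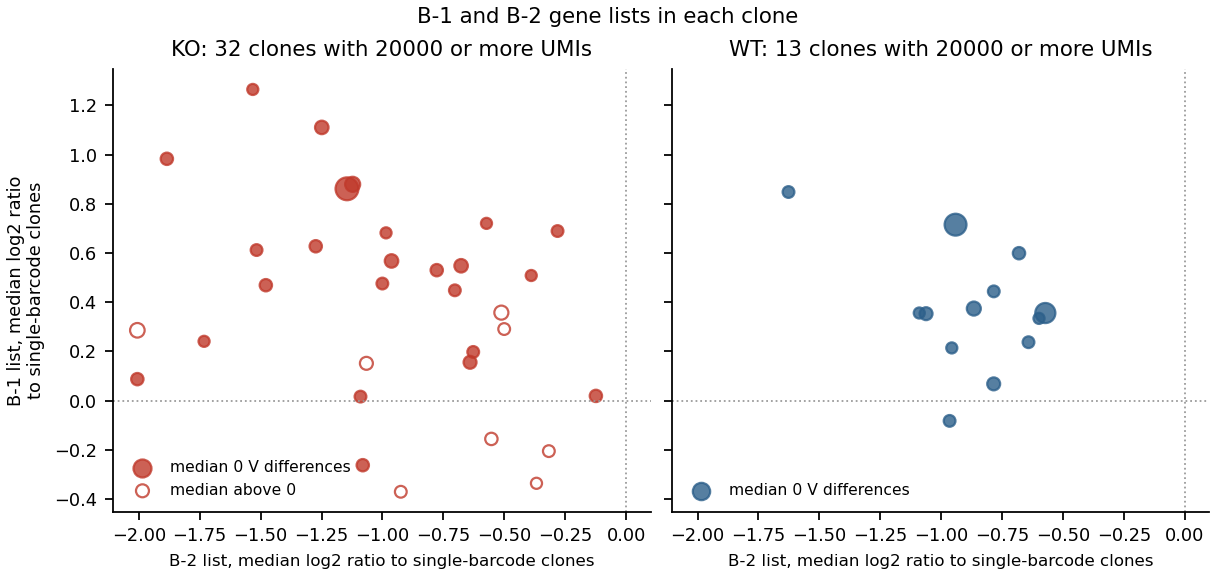
Median log2 ratio to single-barcode clones of the B-2 list (x axis) and the B-1 list (y axis) for each clone with 20000 or more UMIs, KO left (32 clones) and WT right (13 clones). Point area grows with the number of barcodes and open points mark a median above 0 V differences, and all points lie left of 0 on the x axis.

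Against the IGHV11-2 or IGHV12-3 clones (1362 KO and 1086 WT profiles), fewer genes were called, and the calls depend on the fit. edgeR's quasi-likelihood test with the library as a block called 81 of 10011 genes higher (0.809%) and 138 lower (1.38%) at a Benjamini-Hochberg adjusted p under 0.05. The fit found no spread of dispersion between genes, so its p-values rest on 1 common dispersion. Without the block 0 genes were called in either direction, with 671 at an unadjusted p under 0.05, and DESeq2 called 5 higher and 11 lower. Zbtb32 did not pass the test, with 169 CPM in KO members and 191 CPM in KO IGHV11-2 or IGHV12-3 clones, and 200 CPM in WT members and 191 CPM in WT ones (-0.08 ± 0.10), nor did Bhlhe41 (-0.30 ± 0.13). Mzb1 was higher in members (0.34 ± 0.07), though not without profiles that held other-lineage UMIs or a second heavy chain, where it was 0.16.

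Of the 21 B-1 genes, 8 were lower in members and 0 higher, with a list median of -0.30 against -0.0049 over all genes tested. Zcwpw1 had 91.7 CPM in KO members and 320 CPM in KO IGHV11-2 or IGHV12-3 clones, and 112 CPM in WT members and 217 CPM in WT ones (-1.43 ± 0.11). Cd300lf (-1.56 ± 0.21), Ahr, the aryl hydrocarbon receptor (-0.77 ± 0.17), Pstpip2 (-0.68 ± 0.15), Cd9 (-0.66 ± 0.10), Epcam (-0.61 ± 0.14), Nfatc1 (-0.47 ± 0.09) and Lgals1 (-0.28 ± 0.08) were the others. Of the 19 B-2 genes tested, 2 were higher (Fcer2a and Fcrl1) and 1, Klf2, was lower, with a list median of 0.12. Fcer2a had 32.5 CPM in KO members and 7.26 CPM in KO IGHV11-2 or IGHV12-3 clones, and 13.3 CPM in WT members and 12.1 CPM in WT ones. In WT the difference in Fcer2a was small beside that in KO.

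Egr1, Egr2, Ier2 and Nr4a1, which are 4 of the 22 tested genes of the immediate-early list, were lower in members than in the IGHV11-2 or IGHV12-3 clones, and 0 were higher, with a list median of -0.08. Egr1, an immediate-early transcription factor induced by BCR stimulation, had 90.3 CPM in KO members and 215 CPM in KO IGHV11-2 or IGHV12-3 clones, and 38.3 CPM in WT members and 217 CPM in WT ones (-1.75 ± 0.12). Plk2, a stress-responsive kinase, had 81.6 CPM in KO members and 189 CPM in KO IGHV11-2 or IGHV12-3 clones, and 44.5 CPM in WT members and 150 CPM in WT ones (-1.45 ± 0.12). The other genes of the lists that were lower included Egr2, Nr4a1, Nfatc1 and Nfkbid, which are 4 of 12 anergy and tolerance genes, and Rel, Tnfaip3, Nfkbiz and Nfkbid, which are 4 of 20 NF-kB genes. The remaining lowest genes by the ranking were Retnla (-4.17 ± 0.42), Jchain (-3.40 ± 0.24), Ahnak2 (-1.25 ± 0.14), Adm (-1.07 ± 0.17) and Slamf9 (-1.04 ± 0.16). Retnla had 2.17 CPM in KO members and 7.39 CPM in KO IGHV11-2 or IGHV12-3 clones, and 0.890 CPM in WT members and 55.7 CPM in WT ones.

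Highest in members by the same ranking were Arl5c, Serpinb1a, Fcgr2b, Socs3, Prkar2b, Cyp4f18, Gngt2 and Mgst2. Fcgr2b, the inhibitory Fc receptor of B cells, had 202 CPM in KO members and 112 CPM in KO IGHV11-2 or IGHV12-3 clones, and 141 CPM in WT members and 75.01 CPM in WT ones (0.85 ± 0.10). Arl5c, a small GTPase of the ARF family, had 139 CPM in KO members and 72.2 CPM in KO IGHV11-2 or IGHV12-3 clones, and 99.6 CPM in WT members and 54.0 CPM in WT ones (0.89 ± 0.11). Socs3, a suppressor of cytokine signalling, was at 142 CPM in KO members and 80.6 CPM in KO IGHV11-2 or IGHV12-3 clones, and at 103 CPM in WT members and 59.4 CPM in WT ones (0.78 ± 0.11). The BCR adaptor Blnk (0.48 ± 0.09) and Cd81 (0.28 ± 0.08) were the 2 BCR signalling genes of 27 that were higher. With DESeq2, Fcgr2b, Arl5c, Plk2 and Ahnak2 kept an adjusted p under 0.05 among the 16 ranked genes.

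Between genotypes the members could be compared as 1 library against another, with no test. Of 2743 genes at 50 CPM or more in either library, 20 were higher in KO members (0.729%) and 3 lower (0.109%), where called means a KO to WT ratio whose exact 95% interval lies wholly above 1.5 or below its inverse. Irf2bp2, a transcriptional corepressor, was among the lower ones, with 129 CPM in KO members and 407 CPM in WT members, a ratio of 0.318 (0.266 to 0.379). The same ratio stood at 0.345 (0.329 to 0.362) in single-barcode clones, with 105 CPM in KO and 305 CPM in WT, so single-barcode clones showed a like difference. Krt8 was also called lower, with 7.94 CPM in KO members and 54.3 CPM in WT members, but fell under 50 CPM in both without the largest clones.

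Several genes called higher in KO members are myeloid. Lyz2 had 601 CPM in KO members and 109 CPM in WT members, a ratio of 5.49 (4.54 to 6.69), against 1.09 in single-barcode clones. The Lyz2 ratio was 2.94 without the largest clones, 1.52 and no longer called with at most 5 barcodes per clone, 2.93 with thinned profiles, and 75.1 with the leading light chain of each clone alone. The last ratio rests on very few WT UMIs. Of the WT members' 123 Lyz2 UMIs, 113 lay in 1 profile, which that setting left out. Ifitm2 (7.46, 4.44 to 13.4), Alox5ap (6.39, 3.72 to 11.8), Pltp (6.35, 3.37 to 13.2), Ifitm3 (5.50, 3.79 to 8.25) and Fcer1g (4.66, 3.17 to 7.06) followed. After profiles with 5 or more Lyz2 UMIs were left out, 8 genes were higher and 4 lower, and Ifitm2, Ifitm3, Alox5ap, Fcer1g, Pltp and Lyz2 were under 50 CPM in both libraries. The genes of the ranking that kept the call there were Hs3st1, a heparan sulfate sulfotransferase (3.54, 2.42 to 5.31), the phosphatase Dusp2 (2.68, 1.78 to 4.12), Mgst2 (2.48, 1.57 to 4.03), Zbtb38 (2.43, 1.59 to 3.82), Susd3 (2.19, 1.61 to 3.005), Egr1 (2.17, 1.51 to 3.16) and Lgals3 (2.07, 1.57 to 2.77). With at most 5 barcodes per clone, Hs3st1 (3.22) and Dusp2 (2.76) kept the call, while Mgst2, Zbtb38, Susd3, Lgals3 and Egr1 (1.54) lost it. With thinned profiles, Dusp2 (5.21) kept it and Hs3st1, Mgst2, Zbtb38, Susd3, Egr1 and Lgals3 lost it. Without profiles with other-lineage UMIs or a second heavy chain, Dusp2 (2.57, 1.43 to 4.90), Zbtb38, Susd3 and Lgals3 lost the call. Hs3st1 (3.62), Mgst2 (6.43) and Egr1, which then had no WT UMI, kept the call there. Hs3st1 had 103 CPM in KO members and 30.3 CPM in WT members over all profiles, against 159 CPM in KO single-barcode clones and 119 CPM in WT ones. With profiles thinned to 1500 UMIs, 7 genes were higher and 6 lower.

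**Figure D5:**
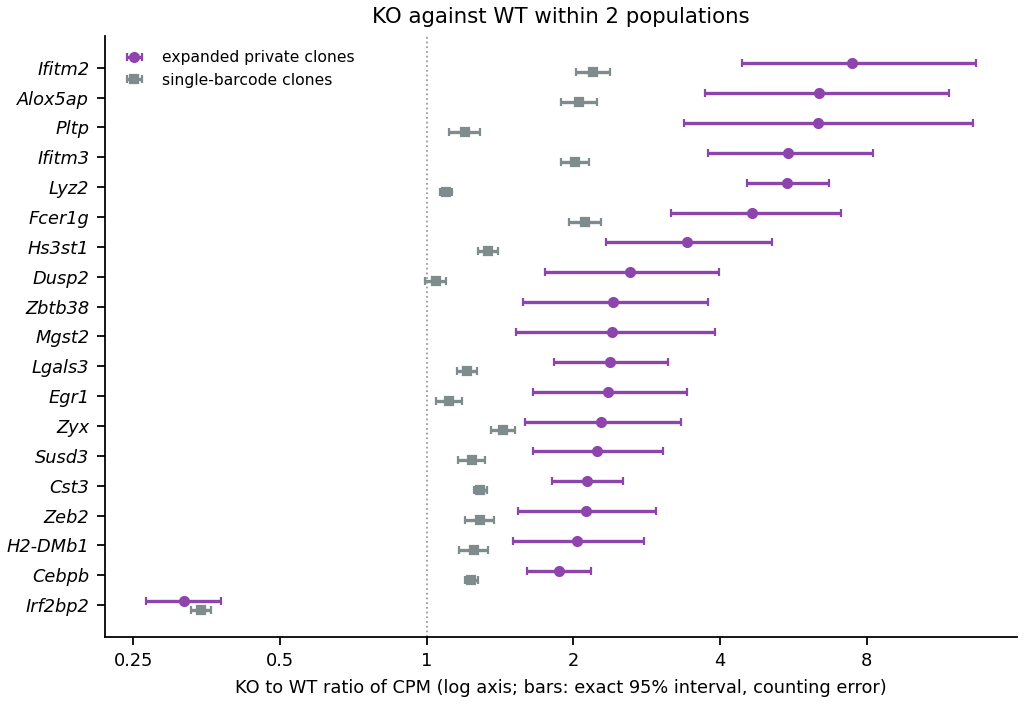
KO to WT ratio of CPM (x axis, log scale) of the 19 ranked genes (y axis) in expanded private clones (circles) and, where the gene reached the same level, in single-barcode clones (squares), with exact 95% intervals for counting error. Irf2bp2 is lower in KO in both populations, while Lyz2 is at 5.49 in the clones and 1.09 in single-barcode clones.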

How the data were processed

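UMI counts per gene and barcode were deposited by the authors as filtered matrices, and heavy- and light-chain contigs with their UMI counts as annotation tables. The matrices name Cell Ranger 6.1.2, per the file headers, while Cell Ranger 6.0.1, Seurat 4.3.0 and mm39 are named per the submitters' processing notes. The knocked-out gene is not reported here. The members, gene lists and tests were chosen with earlier results of these data known. Heavy contigs tied in UMIs were ordered by reads. V segments were compared with GENCODE M21 (mm10) transcripts. Doublets were not called. Profiles holding other-lineage UMIs or a second heavy chain were left out in an alternative. Summed counts were tested with edgeR 4.0.16 in R 4.3.3 with the library as a block, on genes kept by its filter on low counts, and DESeq2 1.42.0 was an alternative. The genes named were the 8 to 12 with the largest fold change in each direction among those called, at 50 CPM or more in a population and moving the same way in both libraries, plus the given markers. Other genes that passed within a list, and clones beyond the 6 largest of each library, were named after their values were seen. Ratios between genotypes have exact binomial 95% intervals. Members summed to 1384766 UMIs in KO and 1123968 in WT. Each test script was tested on simulated data.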

Additional observations from a re-analysis of the deposited data

Results flagged for a closer look

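Among 93 named genes, 6 had a ratio of members to single-barcode clones wholly above 1 in KO and wholly below 1 in WT. The difference between libraries was not tested, and most of these genes had been named for their KO to WT ratio. Lyz2 had a ratio of 1.46 in KO (1.36 to 1.57) and 0.290 in WT (0.241 to 0.347). The ratio of Ifitm2 was 1.36 in KO and 0.401 in WT, that of Alox5ap 1.25 in KO and 0.401 in WT, and that of Ifitm3 1.34 in KO and 0.491 in WT. For Fcer1g it was 1.45 in KO and 0.656 in WT, and for Susd3 1.34 in KO and 0.741 in WT. Of the KO members' Lyz2 UMIs, 93.4% lay in 5 profiles.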

How the results depend on the processing

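The 3 given markers kept their calls against single-barcode clones under every alternative run. With a minimum of 3 barcodes there were 479 KO clones (12.8% of heavy-chain barcodes) and 71 WT clones (5.26%), and with 10 there were 4 (0.493%) and 3 (1.04%). When the light chain had to match, the share was 1.82% in KO and 1.95% in WT, so the order of the genotypes turned. With exactly 1 heavy contig it was 2.30% in KO and 1.90% in WT. The KO share was 0.859% (7.73 clones) after thinning to the WT number of barcodes. The KO share of the leading light chain was 88.6% with exactly 1 heavy and 1 light contig. Against single-barcode clones, genes higher numbered 330 without profiles rich in Lyz2, 365 with barcodes of the leading light chain, 87 without the library block and 115 with DESeq2. Genes lower numbered 239 with clones of 1 or 2 barcodes as comparator, 245 without profiles rich in Lyz2, 304 with the leading light chain, 328 without the filter on low counts, 67 without the library block and 64 with DESeq2. Against IGHV11-2 or IGHV12-3 clones, genes higher numbered 25 without profiles with other-lineage UMIs or a second heavy chain, 0 without the block and 5 with DESeq2, and genes lower 53, 0 and 11. Between genotypes, genes higher numbered 8 with at most 5 barcodes per clone, 11 without profiles with other-lineage UMIs or a second heavy chain, 8 without profiles rich in Lyz2 and 7 after thinning. Genes lower numbered 8 with at most 5 barcodes per clone, 5 without the largest clones, 5 without other-lineage profiles and 6 after thinning. The alternatives on Lyz2, on the leading light chain and on clones of 1 or 2 barcodes were chosen after seeing the data, and the cause of these changes was not tested. No paired analysis was possible between genotypes because each has 1 library, while the tests within libraries have the library as a block.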
